A study of Laguncularia racemosa with 22 samples.

Results

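The 100 genes described here had their lowest leaf transcript level at 3 h, in both series of *Laguncularia racemosa* seedlings that the study sampled, and stood higher again at 12 h and 36 h. *L. racemosa*, the white mangrove, is a tree of tropical and subtropical tidal shores. For every gene a score was computed from CPM, a gene's count scaled to a common library total. Within a letter, the mean log2(CPM + 1) at 3 h was taken from the lowest of the means at 0, 12 and 36 h, and the score is the smaller of the 2 letters' values. It therefore gives, on the log2 scale, how far 3 h lay below the nearest other time in the letter where that fall was smaller. The 16061 genes with a mean of 1 CPM or more were ranked, of 54696 in the table; 2129 had a score above 0, and the 100 of highest score are the members, chosen by these measured levels. All 100 passed the filter for the tests.

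Leaves of wild-type seedlings 8 weeks old were sampled, and the 22 libraries carry the letter P or Q and a time of 0, 3, 12 or 36 h. P is labelled as exposed to freezing temperature (0 °C), and 36 h there means 12 h of cold and then 24 h of recovery at 30 °C by day and 28 °C by night. Those of Q read control at every time. P had 3 libraries at 0 h and at 12 h and 2 at 3 h and at 36 h; Q had 3 at each time. The protocol text is shared by both letters and describes 0 °C only, so the treatment of Q is known only as control. Seeds were collected in 2 places, and no label ties a letter to either. Whatever else distinguishes the letters is part of any contrast of P with Q. Every sample is labelled with 16 h of light and 8 h of dark. In P the times differ in hours of treatment, and in both letters possibly in the hour of day. These cannot be told apart in contrasts with 0 h or 3 h. By the labels, 36 h in P came 24 h after 12 h, so these times share an hour of day if all plants started together. RNA came from the leaves of each plant, but whether each library of a group is a plant of its own is not stated, so the p-values reflect spread among libraries that may be technical.

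Plant leaves change the levels of many transcripts within hours of a fall in temperature: some through cold-induced transcription factors, some with the day and night cycle, and transcripts that are made less or decay faster fall. Such early changes can be followed by a return, by a lasting shift or by an overshoot. The gene IDs here come from a transcript assembly and carry no names, so no function is given for any member. Members are called by their rank in the score, and 4 of them also by ID.

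Each library held 13743563 to 18462363 counts. The mean level of a member over all libraries ran from 1.66 to 1038 CPM with a median of 15.8 CPM, against a median of 20.7 CPM for all ranked genes. No member had fewer than 595 counts over the 22 libraries, and only 2 of the pairs of a member and a library held a count of 0.

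Scores were high for the leading members and low for the last ones. A score gives the distance to the nearest other time, so it does not order members by their fall from 0 h. The score was 1.71 for rank 1, 0.72 for the median member and 0.58 for rank 100. Just inside the list, ranks 98, 99 and 100 scored 0.582, 0.581 and 0.579, and just outside it the next 2 genes scored 0.577 and 0.576, so the list has no gap at its end. At 3 h the members' mean CPM in P was 8.36% to 64.6% of that at 0 h, with a median of 42.7%, and 69 members were down 2-fold or more. In Q it was 8.46% to 66.9%, with a median of 42.1%, and 66 members were down 2-fold or more. These values chose the members and are a description. In bulk leaves, less RNA per cell and fewer cells of a type cannot be told apart.

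**Figure D1:**
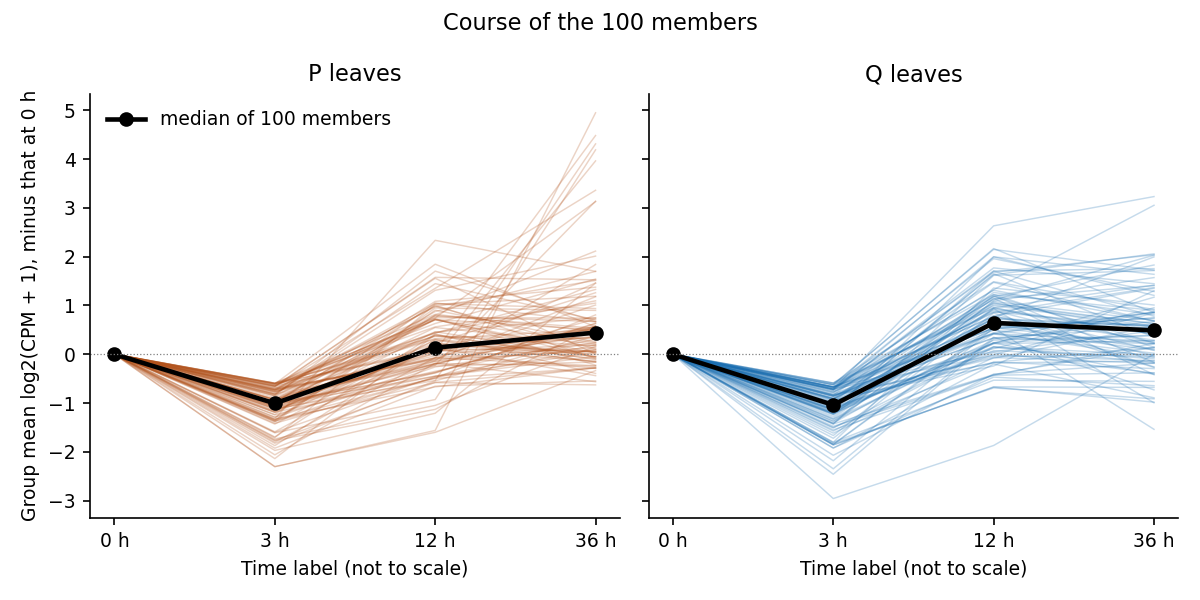
Course of each member (thin lines) in P leaves and Q leaves. The vertical axis is the group mean of log2(CPM + 1) minus that at 0 h, the horizontal axis the 4 time labels (not to scale), and the black line is the median of 100 members; all members dip at 3 h because the choice requires it, and at 36 h several in P stand far above 0 h.

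TRINITY_DN804_c14_g1, rank 1, showed the deepest fall by the score. Its P libraries had 10.2, 3.39 and 4.77 CPM at 0 h, 1.09 and 0.934 CPM at 3 h, 17.5, 10.4 and 10.3 CPM at 12 h, and 17.5 and 11.1 CPM at 36 h. Its Q libraries had 5.29, 9.69 and 7.15 CPM at 0 h, 1.53, 0.946 and 1.61 CPM at 3 h, 15.7, 24.3 and 20.9 CPM at 12 h, and 12.3, 19.4 and 15.4 CPM at 36 h. In both letters the 3 h libraries lay below all others and every 12 h and 36 h library lay above every 0 h library. The rise above 0 h, which the choice did not use, was called at 12 h and at 36 h in both letters by edgeR's quasi-likelihood test, with log2 changes of 1.18 ± 0.35 (SE) in P and 1.57 ± 0.35 in Q at 12 h (adjusted p = 0.0136 and 0.0013), and of 1.16 ± 0.38 in P and 1.13 ± 0.35 in Q at 36 h (adjusted p = 0.0214 and 0.0182). The 12 h call in P was lost without P 0 h replicate 2, P 0 h replicate 3 or P 12 h replicate 1 (adjusted p 0.0618 to 0.0751). At 36 h it was lost in P without P 0 h replicate 2, P 0 h replicate 3 or P 36 h replicate 1 (0.0783 to 0.232), and in Q without Q 0 h replicate 1, Q 0 h replicate 3 or Q 36 h replicate 2 (0.0548 to 0.0878). Fitted on the compared libraries alone, the P changes had adjusted p of 0.0736 at 12 h and 0.121 at 36 h.

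TRINITY_DN8310_c0_g2, rank 2, was more abundant and varied less between libraries. In P it had 20.3, 29.5 and 25.7 CPM at 0 h, 10.7 and 7.81 CPM at 3 h, 44.2, 52.5 and 50.6 CPM at 12 h, and 44.9 and 49.7 CPM at 36 h. In Q it had 16.9, 27.6 and 18.1 CPM at 0 h, 8.08, 6.21 and 6.85 CPM at 3 h, 41.8, 41.8 and 51.0 CPM at 12 h, and 66.6, 56.9 and 64.6 CPM at 36 h. No library of 12 h or 36 h overlapped those of 0 h in its letter, and none of 0 h overlapped 3 h. Its rises above 0 h were called in all 4 comparisons and under every alternative, with log2 changes at 12 h of 1.09 ± 0.18 in P and 1.22 ± 0.18 in Q (adjusted p = 1.0e-04 and 2.2e-05), and at 36 h of 0.83 ± 0.20 in P and 1.62 ± 0.18 in Q (adjusted p = 0.0025 and 1.4e-06).

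Rank 4 had the largest rise from 0 to 12 h in P among members called there. Its P libraries held 9.57, 3.99 and 7.75 CPM at 0 h, 2.76 and 1.53 CPM at 3 h, 44.5, 31.6 and 39.1 CPM at 12 h, and 35.2 and 16.4 CPM at 36 h. Its Q libraries held 12.97, 8.30 and 8.60 CPM at 0 h, 2.09, 3.43 and 3.63 CPM at 3 h, 28.8, 34.5 and 33.0 CPM at 12 h, and 32.4, 47.9 and 26.0 CPM at 36 h. Levels at 12 h were thus well above those at 0 h without overlap in either letter, and the log2 change in P was 2.56 ± 0.34 (adjusted p = 1.2e-05).

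Ranks 3 and 5 had 36 h means nearer to those of 0 h than ranks 1, 2 and 4. Rank 3 averaged 10.0 ± 3.07, 2.98 ± 0.31, 12.2 ± 1.07 and 9.24 ± 2.67 CPM (SD) at 0, 3, 12 and 36 h in P, and 10.1 ± 6.66, 3.16 ± 1.45, 15.0 ± 2.54 and 14.8 ± 5.22 CPM in Q. Rank 5 averaged 64.5 ± 13.9, 18.9 ± 1.26, 87.0 ± 24.3 and 49.3 ± 15.8 CPM in P, and 52.2 ± 3.72, 19.3 ± 4.65, 69.9 ± 5.86 and 52.9 ± 2.44 CPM in Q.

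The separation of 3 h from the rest differed among members. In 60 members all 5 libraries at 3 h lay below all 17 libraries of the other times, which held for 1.05% of the ranked genes; the choice used these values, so nothing is read from the difference. Within P it held for 82 members and within Q for 79. The choice used these values too, and no share of ranked genes was taken within a letter, so nothing is read from them. The nearest time, which set the score, was 0 h in 46 members in P and 65 in Q, 12 h in 36 and 11, and 36 h in 18 and 24. The highest group mean came at 36 h for 51 members in P and 33 in Q, at 12 h for 38 and 53, and at 0 h for only 11 and 14.

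**Figure D2:**
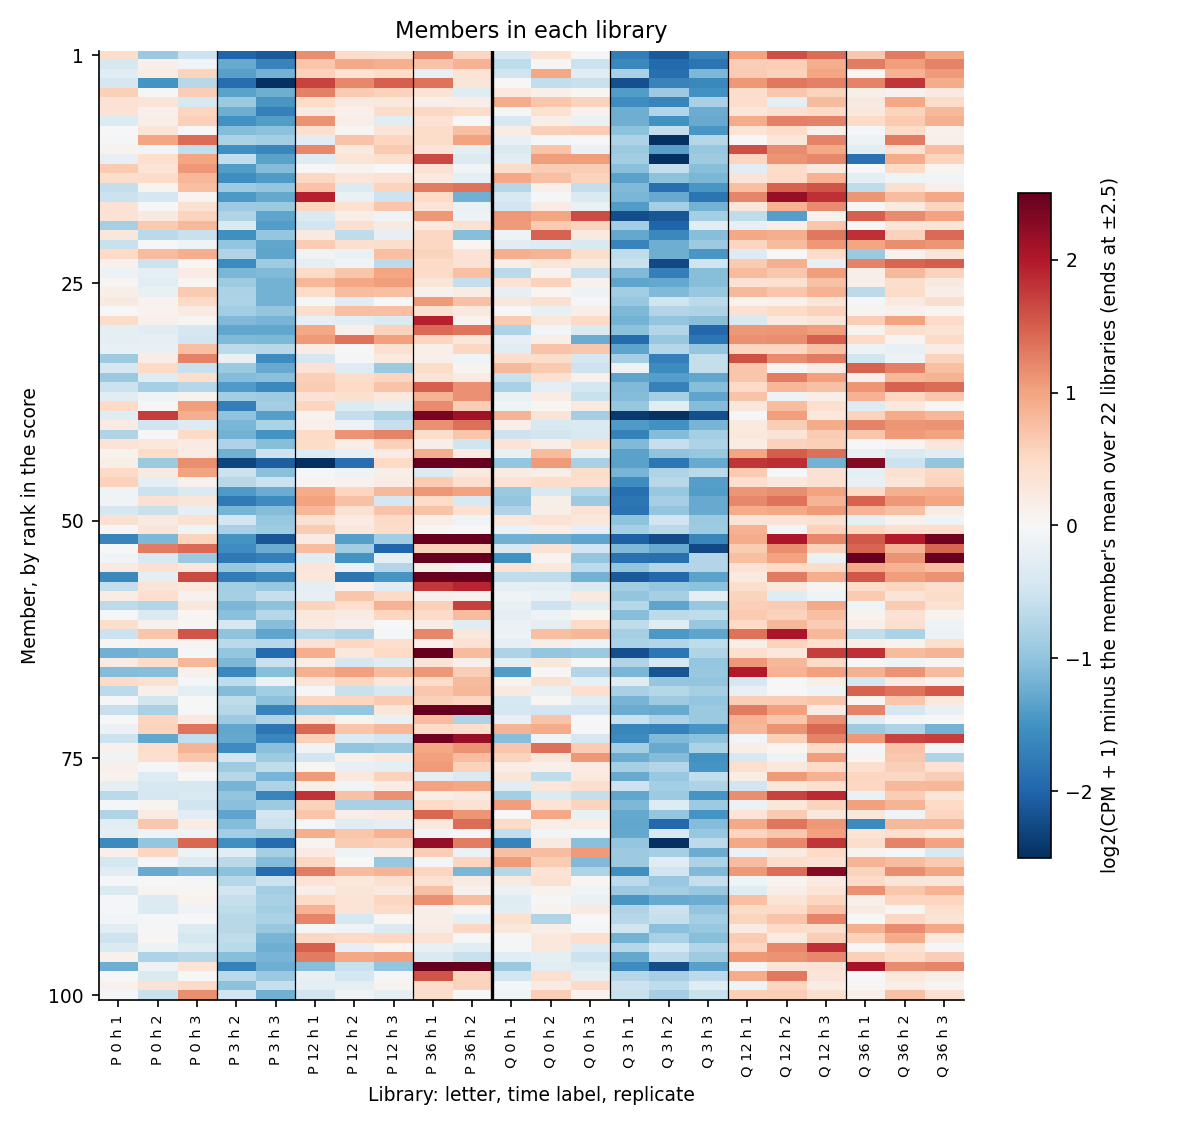
The 100 members (rows, by rank) in each of the 22 libraries (columns, by letter, time label and replicate). Colour is log2(CPM + 1) minus the member's mean over all libraries, ending at ±2.5. The 3 h columns are the darkest blue in both letters. Scattered members between ranks 44 and 97 are darkest red in the libraries of P at 36 h.

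The spread between libraries of 1 group was larger in members than in ranked genes. The choice took extreme differences of group means, which can favour variable genes, and members had a lower median level. Nothing is therefore read from this difference. The SD of log2(CPM + 1) within groups, pooled over the 8 groups, had a median of 0.350 over members and 0.230 over all ranked genes, and ran from 0.130 at rank 88 to 1.32 at rank 44. Single libraries were far below their mates in a few members: Q 3 h replicate 2 lay under 1/3 of the lowest of its mates in 6 members, P 3 h replicate 3 in 2 and Q 3 h replicate 1 in 1. Rank 10 had a count of 0 in Q 3 h replicate 2, against 10.3 and 10.7 CPM in replicates 1 and 3. The median deviation of a library from its group mean over members lay between -0.13 and 0.20 on the log2 scale, so no library was low or high across the list by more than this.

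Together the members took less than 1% of each library. Their summed level dips at 3 h because the choice requires it of each member. It was 4548 ± 407, 1844 ± 13.04, 5365 ± 663 and 6060 ± 833 CPM (SD) at 0, 3, 12 and 36 h in P, and 4081 ± 543, 1872 ± 252, 6837 ± 210 and 6212 ± 108 CPM in Q. Rank 48, with a mean of 1038 CPM, made up a large share of this sum. Its P libraries had 780, 1075 and 1018 CPM at 0 h, 241 and 276 CPM at 3 h, 1662, 1366 and 615 CPM at 12 h, and 1141 and 637 CPM at 36 h. Its Q libraries had 423, 919 and 441 CPM at 0 h, 234, 465 and 343 CPM at 3 h, 1911, 2108 and 1494 CPM at 12 h, and 2303, 1754 and 1635 CPM at 36 h. In Q the 12 h and 36 h libraries lay above those of 0 h without overlap, while in P the 3 libraries of 12 h spread on both sides of 0 h. Without rank 48 the sum was 3590 ± 309, 1586 ± 11.4, 4151 ± 235 and 5171 ± 478 CPM in P, and 3487 ± 262, 1525 ± 136, 5000 ± 243 and 4314 ± 249 CPM in Q.

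**Figure D3:**
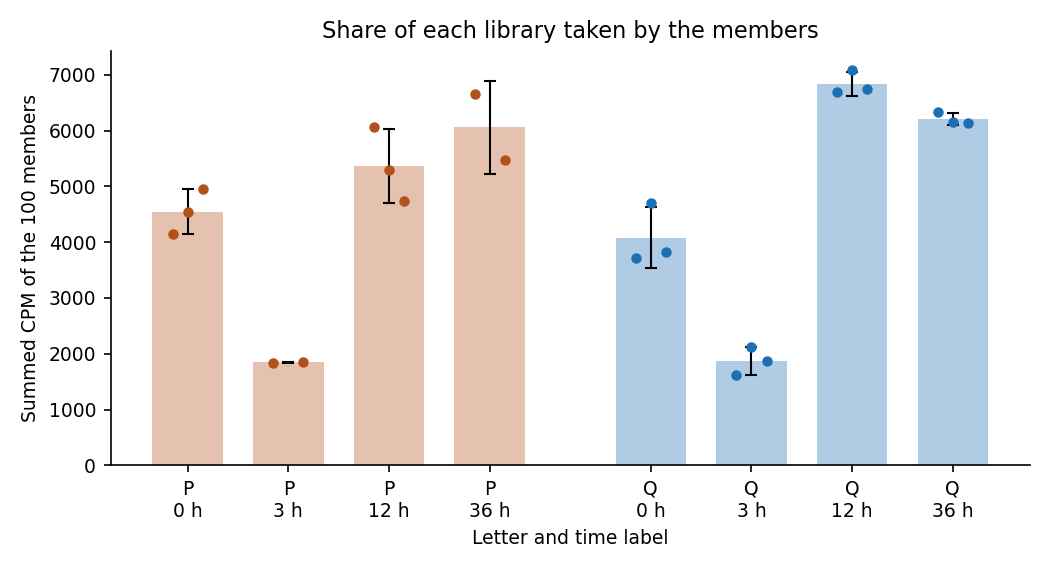
Summed CPM of the 100 members in each library (points) with group means (bars) and SD (error bars), for P and then Q at the 4 time labels. The 3 h libraries of both letters average 1844 CPM in P and 1872 CPM in Q, below every other library, and the 12 h bar of Q is the highest. The dip at 3 h follows from the choice of members.

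Ranks 46 and 65 were the next most abundant, at means of 437 and 239 CPM. Rank 46 had 609, 345 and 441 CPM at 0 h, 252 and 279 CPM at 3 h, 426, 438 and 464 CPM at 12 h and 629 and 542 CPM at 36 h in P. In Q it had 524, 557 and 547 CPM at 0 h, 139, 252 and 156 CPM at 3 h, 538, 490 and 528 CPM at 12 h and 358, 505 and 601 CPM at 36 h. Its 12 h libraries thus lay within or close to the range of its 0 h libraries in both letters. Rank 65 is described with the differences between letters.

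The choice used both letters at 3 h, and the same fall can be looked at in libraries that a choice did not use. When genes were ranked by their fall in P alone, 32 of the 100 of largest fall were called lower at 3 h than at 0 h in Q, where 5.02% of ranked genes were called lower. When they were ranked in Q alone, 30 of the 100 were called lower in P, where 1.92% of ranked genes were. The 2 choices share 31 genes, and hold 48 and 52 of the members. The percentage for the P choice was 20 without Q 0 h replicate 2; that for the Q choice was 19 without P 0 h replicate 3, 10 without P 3 h replicate 2 and 9 without P 3 h replicate 3. Of the members themselves, 44 were called lower at 3 h than at 0 h in P and 63 in Q; nothing is read from these counts, since this contrast chose the members.

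From 0 to 12 h, members ended above their starting level in both letters more often than below it. In P, 32 members rose (19.3% of ranked genes did) and 4 fell (20.7%). In Q, 49 rose (21.7%) and 1 fell (24.9%). A gene could only be a member if its 12 h mean lay above that of 3 h, which limits falls, so nothing is read from the split. The median log2 change over members was 0.29 in P and 0.82 in Q, and over ranked genes -0.03 in each. A set of 29 members rose in both letters, as did 14.4% of ranked genes.

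Ranks 4, 87 and 79 had the largest called rises in P. For rank 87 the P libraries had 24.8, 17.4 and 18.2 CPM at 12 h, against 7.80, 3.45 and 4.01 CPM at 0 h, a log2 change of 2.11 ± 0.52 (adjusted p = 0.0044). For rank 79 they had 186, 88.6 and 117 CPM at 12 h, against 32.9, 39.2 and 41.1 CPM at 0 h (1.91 ± 0.27, adjusted p = 2.6e-05). In neither did the groups overlap.

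In Q the largest called rises were those of ranks 52, 79 and 16. Rank 52 had 26.8, 58.6 and 33.0 CPM at 12 h, against 5.41, 5.28 and 4.88 CPM at 0 h (3.03 ± 0.57, adjusted p = 4.6e-04). Rank 79 had 119, 171 and 196 CPM at 12 h, against 28.8, 41.6 and 34.3 CPM at 0 h (2.33 ± 0.27, adjusted p = 2.3e-06). Rank 16 had 24.9, 49.3 and 38.1 CPM at 12 h, against 7.56, 9.86 and 7.61 CPM at 0 h (2.28 ± 0.56, adjusted p = 0.0040). All 3 were several times higher with no overlap between libraries.

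Few members were called lower at 12 h than at 0 h. In Q only rank 18 fell, with 3.51, 1.68 and 6.40 CPM at 12 h, against 13.7, 12.8 and 20.6 CPM at 0 h (-1.90 ± 0.52, adjusted p = 0.0076). In P the called falls were ranks 39, 74, 13 and 65. Rank 39 had 27.9, 17.0 and 14.6 CPM at 12 h, against 21.1, 88.9 and 49.8 CPM at 0 h (-1.31 ± 0.46, adjusted p = 0.0395), and the libraries overlap. Rank 74 had 3.78, 1.57 and 1.66 CPM at 12 h, against 4.43, 5.91 and 8.12 CPM at 0 h (-1.28 ± 0.39, adjusted p = 0.0145). Rank 13 had 24.5, 25.8 and 24.4 CPM at 12 h, against 38.7, 31.1 and 52.3 CPM at 0 h (-0.58 ± 0.21, adjusted p = 0.0385). All 3 calls are weak: that of rank 74 was lost without P 0 h replicate 3, P 12 h replicate 2 or P 12 h replicate 3 (adjusted p up to 0.0791), and those of ranks 39 and 13 were lost in 7 and 6 of the 22 fits that each left out 1 library, and all 3 in the fit of the compared libraries only. The count of 4 falls in P was 0 in that fit, and 0 without P 0 h replicate 3 or P 12 h replicate 2.

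**Figure D4:**
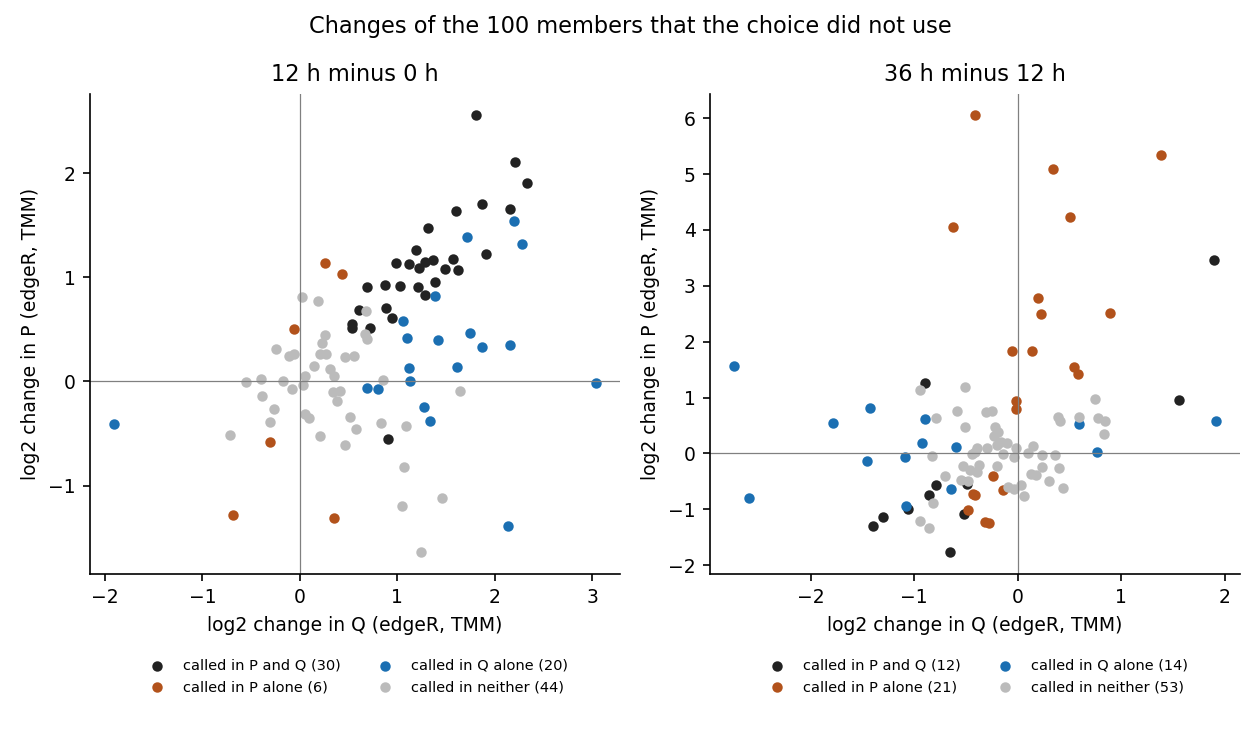
Log2 change of each member in P (vertical axis) against that in Q (horizontal axis), from 0 to 12 h (left) and from 12 to 36 h (right), from edgeR with TMM scaling. Colours mark members called in both letters, in P alone, in Q alone or in neither; on the left 30 members are called in both letters and most lie in the upper right, and on the right the members called in P alone reach a log2 change of 6.05 in P.

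At 36 h, too, members stood above 0 h more often than below it. In P, 31 rose (21.3% of ranked genes did) and 3 fell (22.8%); in Q, 32 rose (17.0%) and 3 fell (19.7%). The choice limits falls here in the same way. The median log2 change was 0.42 in P and 0.54 in Q, against -0.05 and -0.04 over ranked genes. The 3 falls in P were 6 without P 36 h replicate 1 and 0 in the fit of the compared libraries. A set of 19 members rose in both letters (11.8% of ranked genes did), and 9 members rose at 12 h and at 36 h in both (7.35%): ranks 1, 2, 4, 30, 36, 47, 66, 69 and 90.

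The 2 members of that set of 19 with the largest rise in the letter where it was smaller were TRINITY_DN897_c3_g1 (rank 52) and TRINITY_DN1356_c0_g4 (rank 54). TRINITY_DN897_c3_g1 had 208 and 184 CPM at 36 h in P, against 3.66, 5.74 and 20.6 CPM at 0 h, and 41.9, 56.9 and 78.0 CPM at 36 h in Q, against 5.41, 5.28 and 4.88 CPM at 0 h. Its log2 change was 4.22 ± 0.60 in P (adjusted p = 5.1e-05) and 3.54 ± 0.57 in Q (adjusted p = 1.9e-04). TRINITY_DN1356_c0_g4 had 35.3 and 35.5 CPM at 36 h in P, against 4.43, 3.34 and 2.00 CPM at 0 h, and 44.2, 11.4 and 34.8 CPM at 36 h in Q, against 0.989, 5.05 and 1.92 CPM at 0 h. Its log2 change was 3.37 ± 0.70 in P (adjusted p = 0.0012) and 3.53 ± 0.67 in Q (adjusted p = 7.2e-04). Neither overlapped 0 h in either letter, and these calls held in every alternative run. At 3 h TRINITY_DN897_c3_g1 had 4.23 and 2.34 CPM in P and 2.60, 2.13 and 3.76 CPM in Q, so its dip was small beside its later rise. In P its 3 h libraries overlapped those of 0 h.

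Ranks 44, 97 and 64 had the largest called rises from 0 to 36 h in P. Rank 97 had 55.8 and 94.4 CPM at 36 h, against 1.00, 3.28 and 4.93 CPM at 0 h (4.52 ± 0.60, adjusted p = 1.6e-05). Rank 44 had 165 and 444 CPM at 36 h, against 7.92, 3.23 and 17.1 CPM at 0 h (4.93 ± 1.31, adjusted p = 0.0083), with an adjusted p of 0.0586 without P 36 h replicate 2. Rank 64 had 191 and 15.5 CPM at 36 h, against 3.13, 3.28 and 8.34 CPM at 0 h (4.33 ± 0.85, adjusted p = 8.6e-04). The 2 libraries of rank 64 lie far apart, and without P 36 h replicate 1 its log2 change was 1.58 with an adjusted p of 0.112. Rank 73 was the next in Q after the 2 named members, with 6.53, 10.5 and 10.7 CPM at 36 h, against 0.698, 2.32 and 1.63 CPM at 0 h (2.60 ± 0.55, adjusted p = 0.0013).

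The members called lower at 36 h than at 0 h were 3 in each letter, and rank 14 was among them in both. Rank 14 had 145 and 105 CPM at 36 h in P, against 167, 168 and 217 CPM at 0 h, and 104, 113 and 117 CPM at 36 h in Q, against 241, 207 and 179 CPM at 0 h. Its log2 change was -0.63 ± 0.17 in P (adjusted p = 0.0076; 0.181 without P 36 h replicate 2, and 0.0627 in the fit of the compared libraries) and -0.87 ± 0.15 in Q (adjusted p = 2.3e-04). In Q, rank 72 had 2.27, 2.57 and 1.68 CPM at 36 h, against 9.95, 10.6 and 5.05 CPM at 0 h (-1.93 ± 0.38, adjusted p = 6.3e-04), and rank 85 had 50.7, 46.1 and 36.1 CPM at 36 h, against 81.2, 81.9 and 101.2 CPM at 0 h (-0.96 ± 0.22, adjusted p = 0.0028). Libraries did not overlap in any of these. In P, ranks 45 and 13 were called lower at log2 changes of -0.75 and -0.65 (adjusted p = 0.0473 and 0.0364), calls that were lost in 13 and 5 of the 22 fits that each left out 1 library.

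From 12 to 36 h the members moved in both directions. In P, 17 rose (19.9% of ranked genes did) and 16 fell (20.4%), shares close to those of other genes. With library totals in place of TMM scaling the split was 24 and 8, and the median of all genes was then 0.26 in place of 0.06. Without P 36 h replicate 2 it was 18 and 5. In Q, 5 rose (15.4%) and 21 fell (14.2%), and the median log2 change over members was -0.24, against 0.01 over ranked genes. The Q count of 26 was 17 without Q 12 h replicate 3 and 13 without Q 36 h replicate 1. Of the called members, 9 fell in both letters (7.8% of ranked genes did) and 2, ranks 54 and 68, rose in both (6.82%).

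The rises in P at this step were the largest changes within a letter among those that the choice did not use. Rank 97 had 55.8 and 94.4 CPM at 36 h, against 1.24, 2.18 and 1.34 CPM at 12 h (5.35 ± 0.63, adjusted p = 8.7e-06). Rank 56 had 111 and 93.7 CPM at 36 h, against 6.26, 0.682 and 1.15 CPM at 12 h (5.08 ± 0.90, adjusted p = 4.8e-04). Rank 44 had 165 and 444 CPM at 36 h, against 0.0728, 1.16 and 10.5 CPM at 12 h (6.05 ± 1.40, adjusted p = 0.0039). The groups were far apart in all 3, and the 12 h libraries of rank 44 spread widely.

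The falls in P from 12 to 36 h were smaller. Rank 96 had 109 and 94.4 CPM at 36 h, against 345, 273 and 283 CPM at 12 h (-1.76 ± 0.21, adjusted p = 5.7e-06). Rank 79 had 58.8 and 62.0 CPM at 36 h, against 186, 88.6 and 117 CPM at 12 h (-1.30 ± 0.30, adjusted p = 0.0029). Rank 77 had 9.70 and 8.83 CPM at 36 h, against 25.5, 14.3 and 18.0 CPM at 12 h (-1.25 ± 0.32, adjusted p = 0.0051; 0.0591 without P 36 h replicate 2). Each was lower in both 36 h libraries than in any 12 h library.

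In Q the largest falls from 12 to 36 h were those of ranks 62, 72 and 43. Rank 62 had 1.07, 0.817 and 1.88 CPM at 36 h, against 7.15, 12.1 and 4.61 CPM at 12 h (-2.74 ± 0.65, adjusted p = 0.0054). Rank 72 had 2.27, 2.57 and 1.68 CPM at 36 h, against 9.78, 12.2 and 15.4 CPM at 12 h (-2.60 ± 0.38, adjusted p = 1.0e-04). Rank 43 had 8.27, 7.18 and 7.71 CPM at 36 h, against 20.01, 29.0 and 26.2 CPM at 12 h (-1.78 ± 0.29, adjusted p = 2.4e-04). In these 3 the level fell again after the dip at 3 h, with no overlap between the libraries of the 2 times.

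The largest rises in Q at this step were those of ranks 18, 54 and 68. Rank 68 had 32.2, 29.6 and 33.6 CPM at 36 h, against 9.60, 10.9 and 10.3 CPM at 12 h (1.55 ± 0.21, adjusted p = 3.6e-05). Rank 18 had 18.7, 14.8 and 13.1 CPM at 36 h, against 3.51, 1.68 and 6.40 CPM at 12 h (1.91 ± 0.52, adjusted p = 0.0135), with an adjusted p of 0.0510 without Q 12 h replicate 1, 0.0597 without Q 12 h replicate 2 and 0.0650 with no filter on low counts. TRINITY_DN1356_c0_g4 (rank 54) had 44.2, 11.4 and 34.8 CPM at 36 h, against 8.53, 10.4 and 4.04 CPM at 12 h (1.89 ± 0.62, adjusted p = 0.0359), a call lost in 5 of the 22 fits that each left out 1 library, in the fit of the compared libraries, and with no filter on low counts. Rank 68 was about 3 times as high at 36 h as at 12 h with little spread.

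**Figure D5:**
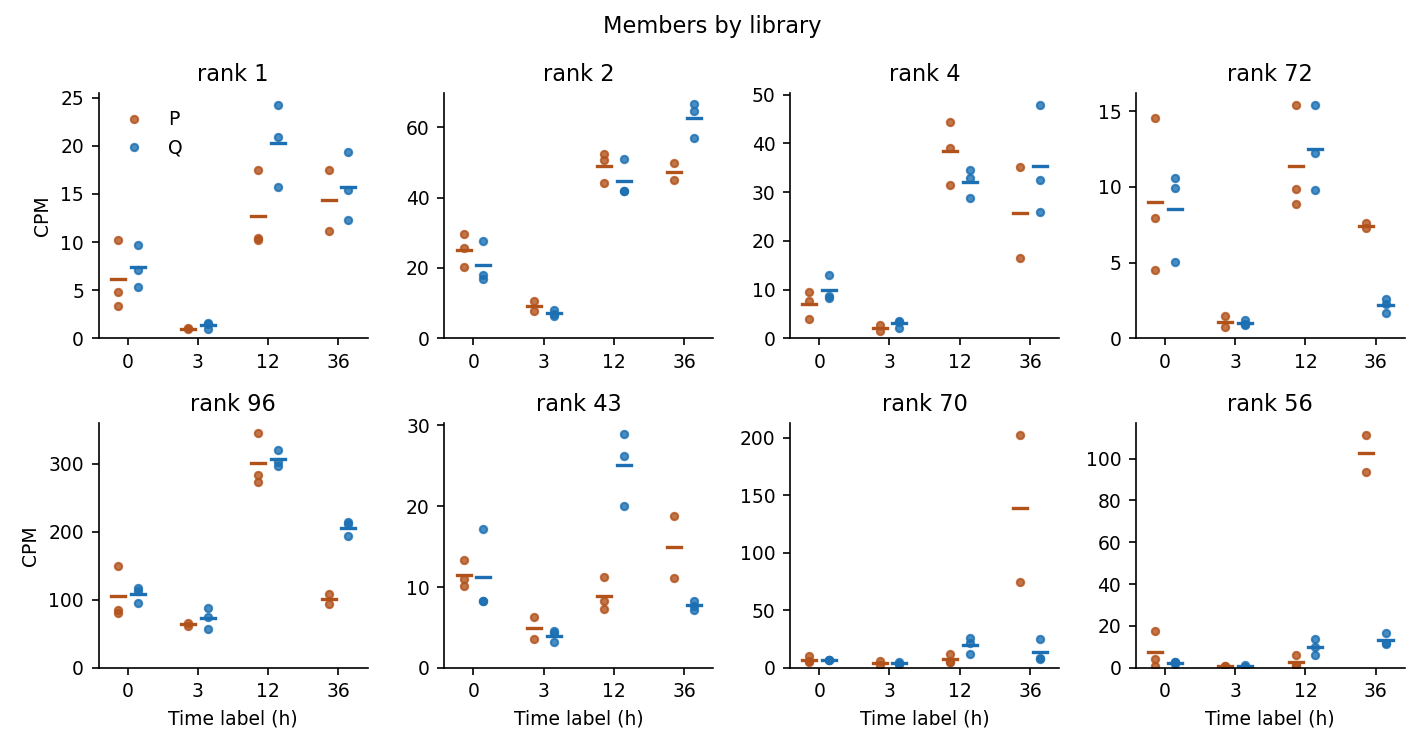
CPM of 8 members in each library (points; short lines are group means), P and Q side by side at each time label. Ranks 1, 2 and 4 dip at 3 h and stand above 0 h at 12 h and 36 h in both letters, rank 72 falls again in Q at 36 h, rank 96 falls in P at 36 h more than in Q, rank 43 is high in Q at 12 h alone, and ranks 70 and 56 are highest in P at 36 h.

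At 0 h and at 3 h no member was called different between P and Q. At 0 h edgeR and DESeq2 each called 0 members. Of ranked genes edgeR called 0% there, and DESeq2 called 0.0996% higher and 0.0311% lower in P. At an unadjusted p under 0.05 edgeR had 5 members higher (3.92% of ranked genes were) and 2 lower (2.48%) in P. At 3 h both tools called 0 members, where edgeR called 0.0187% of ranked genes, and DESeq2 called 0.118% higher and 0.0498% lower. At the unadjusted threshold 4 members were higher (3.05% of ranked genes) and 0 lower (2.25%). The median log2 difference of P minus Q was 0.11 at 0 h and 0.01 at 3 h. A p above the threshold does not show that levels were equal: single members' fitted differences at 3 h ran from -1.29 to 1.35.

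At 12 h members tended to be lower in P. The log2 difference of P minus Q was above 0 in 27 of the 100, with a median of -0.27 over members and 0.04 over ranked genes. By edgeR 4 members were called lower in P (1.54% of ranked genes were) and 0 higher (3.03%). At the unadjusted threshold 19 were lower (8.39% of ranked genes were) and 4 higher (14.5%). DESeq2 called 7 lower (3.46%) and 0 higher (5.64%). The count of 4 depends on single libraries: it was 10 without P 12 h replicate 1, 1 without Q 12 h replicate 1, and 0 without P 12 h replicate 2, P 12 h replicate 3 or Q 12 h replicate 2, and also 0 in the fit of the compared libraries.

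Ranks 62, 43, 98 and 65 made up that count. Rank 43 had 7.28, 8.25 and 11.2 CPM at 12 h in P, against 20.01, 29.0 and 26.2 CPM in Q (-1.40 ± 0.29, adjusted p = 0.0167; 0.0653 to 0.0719 without P 12 h replicate 2, P 12 h replicate 3 or Q 12 h replicate 2). Rank 62 had 1.02, 0.886 and 2.10 CPM in P, against 7.15, 12.1 and 4.61 CPM in Q (-2.47 ± 0.65, adjusted p = 0.0427), and rank 98 had 11.2, 9.20 and 12.6 CPM in P, against 25.3, 33.7 and 16.4 CPM in Q (-1.11 ± 0.28, adjusted p = 0.0348). Letters did not overlap in these 3, while the calls of ranks 62 and 98 were lost in 8 and 5 of the 22 fits that each left out 1 library. Rank 65 had 251, 167 and 182 CPM in P, against 471, 398 and 312 CPM in Q at 12 h (-0.90 ± 0.20, adjusted p = 0.0227), again with no overlap, and this call was lost in 4 of those fits. Relative to 0 h, rank 65 fell in P (-0.55 ± 0.20, adjusted p = 0.0399) and rose in Q (0.91 ± 0.20, adjusted p = 0.0012), from 0 h libraries of 255, 307 and 394 CPM in P and 188, 271 and 221 CPM in Q. The rise in Q kept its call in all 22 fits that each left out 1 library. The fall in P lost it in 7 of them, with adjusted p of up to 0.199 (without P 0 h replicate 3), and also in the fit of the compared libraries, with RLE scaling and with no filter on low counts (0.0522 to 0.117).

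The change from 0 to 12 h, tested as a difference between letters, was called by edgeR for 0 members (0.0623% of ranked genes were called). At the unadjusted threshold 17 were lower in P (7.29% of ranked genes were) and 2 higher (9.92%), and DESeq2 called 4 lower (1.87%) and 1 higher (2.43%).

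At 36 h the letters differed in 14 members. In P, 9 were higher (10.1% of ranked genes were) and 5 lower (6.39%), shares close to those of other genes. The count of 14 was 7 without P 36 h replicate 2, 8 without Q 36 h replicate 1 and 9 without Q 36 h replicate 2 or Q 36 h replicate 3. Rank 70 had 74.7 and 203 CPM in P, against 24.9, 7.24 and 8.71 CPM in Q (3.32 ± 0.55, adjusted p = 9.9e-04; 0.0598 in the fit of the compared libraries). Rank 56 had 111 and 93.7 CPM in P, against 16.5, 11.3 and 12.1 CPM in Q (2.92 ± 0.81, adjusted p = 0.0251). Rank 44 had 165 and 444 CPM in P, against 38.5, 4.55 and 3.08 CPM in Q (4.29 ± 1.28, adjusted p = 0.0372). Both P libraries lay above all Q libraries in these 3, but the call of rank 56 was lost without any 1 of the 5 libraries compared, and that of rank 44 without P 36 h replicate 2, Q 36 h replicate 2 or Q 36 h replicate 3 (adjusted p 0.114 to 0.221), and both were lost with no filter on low counts.

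The members lower in P at 36 h differed by less. Rank 96 had 109 and 94.4 CPM in P, against 211, 193 and 214 CPM in Q (-1.06 ± 0.21, adjusted p = 0.0020; 0.0546 without P 36 h replicate 2). Rank 55 had 23.8 and 20.1 CPM in P, against 42.2, 40.1 and 37.0 CPM in Q (-0.89 ± 0.25, adjusted p = 0.0233), and rank 77 had 9.70 and 8.83 CPM in P, against 17.4, 17.1 and 18.4 CPM in Q (-0.96 ± 0.32, adjusted p = 0.0492). No library overlapped between letters in these 3, yet the calls of ranks 55 and 77 were lost in 4 and 17 of the 22 fits that each left out 1 library.

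The change from 12 to 36 h differed between letters in 18 members: 16 had a higher change in P than in Q (9.23% of ranked genes did) and 2 a lower one (8.42%). The median difference was 0.17 over members and -0.08 over ranked genes. Rank 70 had a log2 change 4.67 ± 0.75 higher in P than in Q (adjusted p = 9.0e-04). At 12 h it had 4.73, 4.64 and 12.4 CPM in P and 25.9, 21.5 and 11.7 CPM in Q, so the letters overlapped at 12 h. Rank 56 differed by 4.75 ± 1.14 (adjusted p = 0.0123) and TRINITY_DN897_c3_g1 by 3.72 ± 0.77 (adjusted p = 0.0050), both under every alternative. Rank 44 differed by 6.47 ± 1.76 (adjusted p = 0.0243), a call lost in 5 of the 22 fits that each left out 1 library. It was also lost in the fit of the compared libraries (0.0941) and with no filter on low counts (0.0600).

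Lower changes in P were those of ranks 96 and 25. Rank 96 differed by -1.11 ± 0.27 (adjusted p = 0.0098; 0.0618 without P 36 h replicate 2): it fell in both letters from 12 to 36 h, to 109 and 94.4 CPM in P and to 211, 193 and 214 CPM in Q, from 12 h levels of 345, 273 and 283 CPM in P and 297, 302 and 320 CPM in Q. Rank 25 differed by -0.91 ± 0.28 (adjusted p = 0.0358), a call lost in 8 of the 22 fits that each left out 1 library. Rank 98 rose in P (1.26 ± 0.30, adjusted p = 0.0031) and fell in Q (-0.89 ± 0.27, adjusted p = 0.0232) over the same step, with 40.6 and 19.4 CPM in P and 12.7, 15.8 and 14.3 CPM in Q at 36 h. The rise was lost without P 36 h replicate 1 (adjusted p = 0.196), and the fall without Q 12 h replicate 1, Q 12 h replicate 2, Q 36 h replicate 1 or Q 36 h replicate 3 (0.0556 to 0.138).

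From 0 to 36 h the change differed between letters in 4 members, higher in P in 1 (3.79% of ranked genes were) and lower in 3 (2.02%). Rank 70 differed by 3.20 ± 0.75 (adjusted p = 0.0237), rank 55 by -1.23 ± 0.33 (0.0423), rank 96 by -1.07 ± 0.27 (0.0277) and rank 21 by -1.02 ± 0.28 (0.0421). All 4 calls depend on single libraries, being lost in 4, 14, 3 and 12 of the 22 fits that each left out 1 library, with adjusted p up to 0.255 for rank 21. The count of 4 was 2 without P 3 h replicate 2, Q 12 h replicate 2 or Q 36 h replicate 1, 1 without P 36 h replicate 2, Q 0 h replicate 3 or Q 36 h replicate 2, and 0 without Q 36 h replicate 3.

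Of the 100 members, 26 were called in either direction in none of the 4 changes from 0 h to 12 h and 36 h (27% of ranked genes were called in none), and 23 in none of the 13 comparisons that the choice did not use (21.2%). A change that was not called does not show that levels were equal.

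Over the 8 group means, 11 of the 100 members correlated at r of 0.95 or more with the mean of the members' standardised courses. So did 23 of the 15961 ranked genes outside the list, or 0.144% of them, which had lower scores (median 0.32). The most alike gene outside the list had r = 0.981 and stood at rank 1133, with a score of 0.116. Members' own values ran from 0.65, at rank 44, to 0.98, with a median of 0.88; the 8 means share their libraries with the choice, so this describes shape only.

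Relatedness of members was looked at only through the clusters of the assembly. An ID that shares a Trinity cluster with another may be a paralog, an isoform or a fragment of it, and reads may be split between them. Of the members 32% share a cluster with another ID, against 30.1% of ranked genes, and 1 pair of members share the same cluster. Of the 56 other IDs of the members' clusters 47 were ranked, and 14 of these (29.8%) had a score above 0, against 13.3% of all ranked genes. Of 51 tested, some of them below the 1 CPM limit of the ranking, 4 (7.84%) were called lower at 3 h than at 0 h in P and 7 (13.7%) in Q. Among ranked genes, all above that limit, the shares were 1.92% and 5.02%, so the sets are not quite alike. Sequences and lengths were not used here, so levels are not compared per length.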

How the data were processed

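Raw counts per gene and library were taken as the authors deposited them. FastQC, HISAT2 and featureCounts were used, per the submitters' processing notes; the alignment target is not stated there. P 3 h replicate 1 and P 36 h replicate 3 were not analysed here. Each of the 22 value columns matched 1 sample, and 0 others were left. Chi-square values per gene between libraries of 1 group, taken over genes with 20 or more counts in a pair, ran from 17.8 to 57.3, where sampling noise alone gives about 1.

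The rule's CPM uses library totals. Tests used edgeR 4.0.16 in R 4.3.3: filterByExpr (minimum count 10) left 21694 genes, with 99.8% to 99.9% of each library's counts; TMM scaling, 8 group means and 1 robust quasi-likelihood fit of all 22 libraries followed (common biological coefficient of variation 0.264). Calls are at a Benjamini-Hochberg adjusted p under 0.05 over all genes tested, within each of 13 contrasts that the rule did not use; backgrounds are shares of the 16060 ranked genes tested. Alternatives included DESeq2 1.42.0, RLE or no TMM scaling, other filters, the compared libraries only, a replicate block and leaving out each library. The fit was tested on simulated counts.

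By rule, IDs are given for the 2 members of highest score and the 2 of largest rise from 0 to 36 h in both letters; ranks described are 1 to 5, the list's end, the 3 largest called changes each way per contrast and the 3 most abundant. Other members were named after their values were seen. The members, lists and tests were chosen with earlier results of these data known.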

Additional observations from a re-analysis of the deposited data

Results flagged for a closer look

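By edgeR's quasi-likelihood test, P and Q changed differently from 12 to 36 h in 18 members and from 0 to 36 h in 4. Of the 18, 16 had a higher change in P (9.23% of ranked genes did) and 2 a lower one (8.42%). Of the 4, 1 had a higher change in P (3.79%) and 3 a lower one (2.02%). From 12 to 36 h the P change minus the Q change was 6.47 for rank 44, 4.75 for rank 56, 4.67 for rank 70 and 3.72 for TRINITY_DN897_c3_g1 on the log2 scale, all higher in P, and -1.11 for rank 96 and -0.91 for rank 25, both lower in P. From 0 to 36 h it was 3.20 for rank 70, higher in P, and -1.23 for rank 55, -1.07 for rank 96 and -1.02 for rank 21, lower in P. P at 36 h holds 2 libraries, which for rank 70 were 74.7 and 203 CPM and for rank 44 were 165 and 444 CPM. Losses of single calls under other fits, that of rank 44 among them, are given in the Results. What the letter carries besides the label was not tested.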

How the results depend on the processing

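The list itself depends on the rule's settings: 72 of the 100 members were kept with a pseudocount of 5 CPM, 86 with 0.5 CPM, 89 with TMM-scaled library sizes, 73 with a minimum mean of 10 CPM, 78 with group medians, 79 with counts summed over Trinity clusters, and 77 to 99 with 1 library left out. Counts of called members stayed within 1.5 times except as follows. For P minus Q at 12 h, 4 members became 7 by DESeq2, 0 in the fit of the compared libraries, 2 with a replicate block and 0 with a replicate block within each letter. For P minus Q at 36 h, 14 became 9 with the block within each letter. For changes that differ between P and Q, 0 from 0 to 12 h became 2 with no filter, 1 with at least 10 counts in at least 11 libraries, and 5 by DESeq2; from 0 to 36 h, 4 became 2 with library totals, 7 by DESeq2 and 1 in the fit of the compared libraries.

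With 1 library left out, called members numbered 0 at 0 h and 0 at 3 h between letters, 0 to 10 at 12 h and 7 to 17 at 36 h. In P they were 28 to 37 from 0 to 12 h, 27 to 35 from 0 to 36 h and 23 to 37 from 12 to 36 h; in Q 42 to 51, 25 to 39 and 13 to 28. Differences between letters numbered 0 to 5 from 0 to 12 h, 0 to 5 from 0 to 36 h and 12 to 21 from 12 to 36 h. Of genes chosen in P, 20% to 32% were called in Q, and of those chosen in Q, 9% to 32% in P. A lone library left in P at 3 h or 36 h was taken to vary like the other groups. Of 70 changes of single members followed over 30 alternatives, 36 were called under every one run, 33 were lost with at least 1 library left out, 21 in the fit of the compared libraries and 12 with the replicate block; 0 turned direction, and for 4, all of rank 44, DESeq2 gave no adjusted p.

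No pairing by replicate number was seen within a letter, though this check cannot exclude one. Over 30 pairs of libraries with the same number and letter, deviations from the group means had a median correlation of -0.01. Of these 30 pairs, 0 were above 0.1. Over the 40 same-numbered pairs across letters the highest was 0.24, with 5 above 0.1, against 4 of 80 pairs with different numbers, and 9 of 22 libraries correlated best with their own number. Library totals without TMM moved the median log2 change of all genes to -0.17 from 0 to 12 h in P, to -0.14 in Q, to 0.26 from 12 to 36 h in P and to 0.12 in Q. At these depths 1 CPM rests on few counts, so members near it are the least precise.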
